A study of Mus musculus with 10 samples.

Results

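Genes induced by type I interferon were followed in the retina of each mouse after injection of an adeno-associated virus (AAV) vector into the vitreous. The set held 41 listed interferon-stimulated genes, found by their GENCODE M21 symbols among the 57010 gene rows of the count table, and 33 of them were among the 15539 genes with enough counts to be tested. One group of 5 mice received AAV2-GFP, a green fluorescent protein (GFP) vector in the AAV2 capsid. The other group of 5 mice received AAV206-GFP, the same reporter in the capsid named AAV206. Mice of both groups were 6 to 8 weeks old, were injected by the same route and gave retinas for bulk RNA sequencing on day 14. Strain, sex, vector dose and batch are not given in the sources used here. No uninjected retina was analysed here, so each level with one capsid is read against the other capsid only. Replicates are separate mice, called below by their replicate number, and a number does not tie a mouse of one group to a mouse of the other.

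Type I interferons are secreted proteins that bind a receptor made of IFNAR1 and IFNAR2. The receptor's kinases JAK1 and TYK2 then activate transcription factors, among them STAT2, which works with IRF9 in the complex ISGF3. This complex binds a short DNA element, the interferon-stimulated response element (ISRE), ahead of genes whose products sense or block viral RNA, tag proteins with ISG15 or damp the signal again. In neural tissue such genes are known as readouts of the innate response to viruses and to viral vectors, and several of them also respond to interferon gamma.

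Library totals ran from 10989843 to 12752604 estimated counts, at which 3 counts correspond to between 0.232 and 0.274 CPM (counts relative to library size, with TMM factors). Levels under that floor are not told apart, and the floor covers counting error only. The tissue label was met by retinal markers in every library: the 5 rod photoreceptor genes together made up 49311 to 58151 CPM and the 5 ganglion cell genes 671 to 867 CPM. AAV2-GFP mouse 1 stood apart in markers of blood-borne leukocytes, which is described with its values below. As these are bulk samples, more cells of a type and more RNA per cell cannot be told apart.

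The interferon-stimulated genes were raised in some AAV2-GFP mice and not in others. Over the 41 genes, the median excess over the AAV206-GFP mean, on the log2(CPM + 1) scale, was 1.46 in AAV2-GFP mouse 1, 0.02 in mouse 2, 0.54 in mouse 3, 1.89 in mouse 4 and -0.06 in mouse 5. The AAV206-GFP mice had medians between -0.13 and 0.16. Thus mice 1 and 4 were high, mouse 3 was intermediate, and mice 2 and 5 lay among the AAV206-GFP mice. A level of at least 2 times the AAV206-GFP mean (or 2 times the floor, where that was larger) was reached by 32 of the 41 genes in mouse 1, 2 in mouse 2, 14 in mouse 3, 36 in mouse 4 and 1 in mouse 5. Among AAV206-GFP mice that number was 0 to 3.

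**Figure D1:**
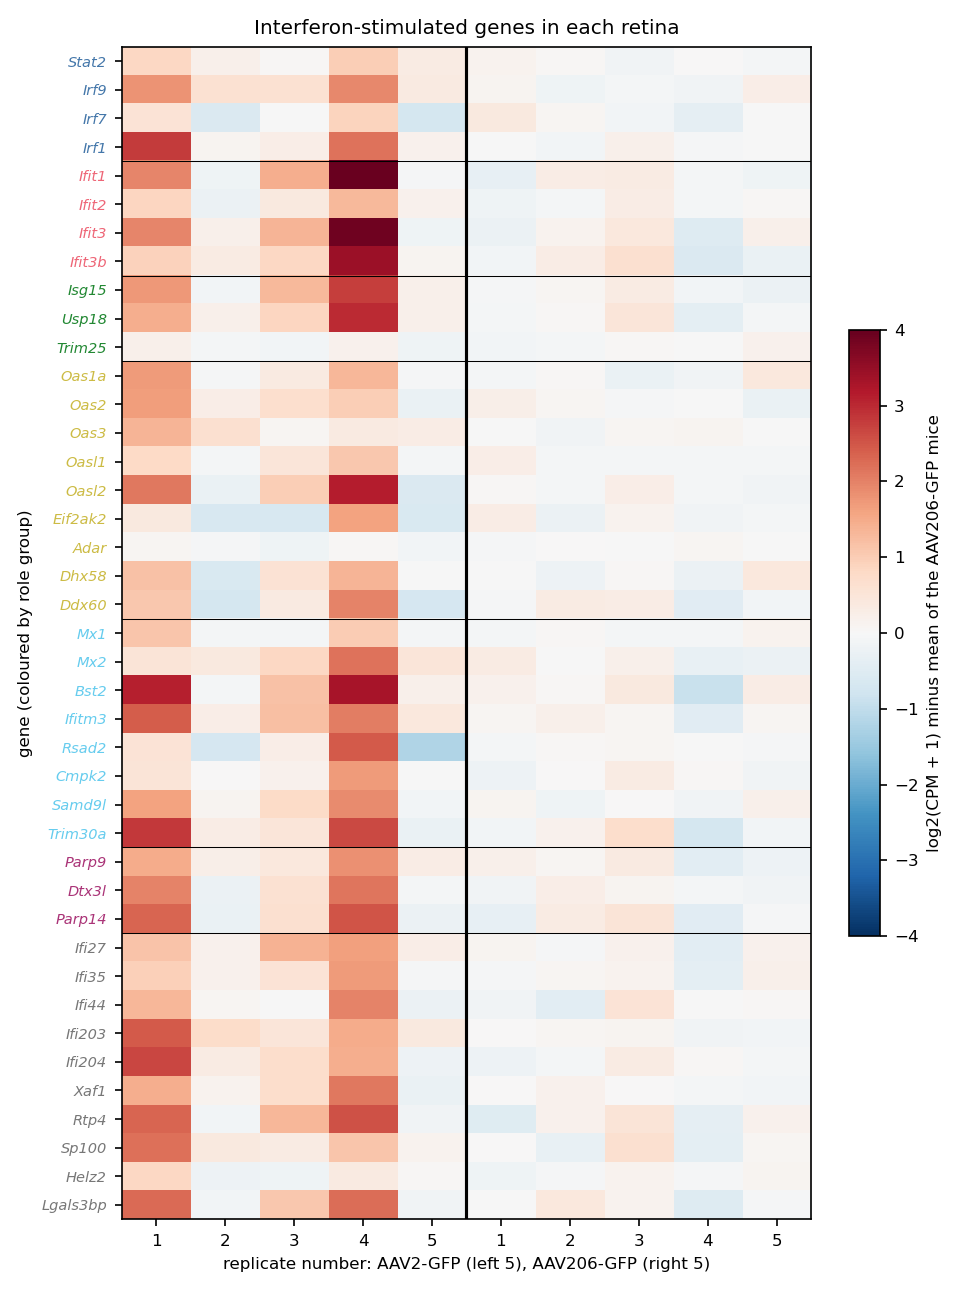
Level of each of the 41 interferon-stimulated genes (vertical) in each of the 10 mice (horizontal), as log2(CPM + 1) minus the AAV206-GFP mean, with gene names coloured by role. The columns of AAV2-GFP mice 1 and 4 are red for most genes, mouse 3 is paler, and mice 2 and 5 look like the AAV206-GFP columns.

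The same 2 mice led for almost every gene. Mouse 4 was the highest AAV2-GFP mouse for 27 of the 41 genes and mouse 1 for the other 14, and mice 2, 3 and 5 for none. Among the tested genes mouse 4 led for 24 of 33, where 15.6% of all tested genes had it highest, and mouse 1 for 9 of 33 against 23.1%. The highest pair was mice 1 and 4 for 38 of the 41 genes. That held for 31 of the 33 tested genes and for 8.54% of all tested genes. Mice 1, 4 and 3 were the 3 highest, in any order, for 31 of the 41 genes, 26 of the 33 tested, against 13.1% of all tested genes. The order mouse 4, mouse 1, mouse 3 was seen in 22 genes, mouse 1, mouse 4, mouse 3 in 7, and mouse 4, mouse 3, mouse 1 in Mx2 and Ifi27.

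Against the AAV206-GFP mice, mouse 1 was above all 5 of them for each of the 41 genes, the 33 tested ones included, where 22.6% of all tested genes behaved so. Mouse 4 was above all 5 for 39 of 41, with Trim25 and Adar as the exceptions, and for 31 of the 33 tested genes against 26.0%. Mouse 3 was above all 5 for 28 of 41 and 24 of the 33 tested genes against 29.5%. Mouse 2 reached that for 6 of the 33 tested genes against 19.0%, and mouse 5 for 6 of 33 against 20.7%, shares near the background. Mice 2 and 5 were below all 5 AAV206-GFP mice for 9 and 8 of the 33 tested genes, against 20.7% and 20.4%, and mouse 3 for 3 against 26.3%. Mice 1 and 4 were below all 5 for 0 of 33, against 20.9% and 23.1%.

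The spread within AAV2-GFP exceeded that within AAV206-GFP for nearly all of these genes. The standard deviation (SD) of log2(CPM + 1) was at least 2 times as large with AAV2-GFP for 40 of 41 genes, Trim25 being the exception, and for 32 of the 33 tested genes against 12.4% of all tested genes. The median SD over the 41 genes was 0.883 among the AAV2-GFP mice and 0.224 among the AAV206-GFP mice, while over all tested genes it was 0.158 in each group. The ratio of the SDs had a median of 3.52 over the 41 genes and ran from 1.46 for Trim25 to 20.4 for Rsad2.

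For the group difference, edgeR's quasi-likelihood test with Benjamini-Hochberg adjustment over all 15539 genes put 20 of the 33 tested genes lower with AAV206-GFP, against 5.3% of all tested genes. None was higher with AAV206-GFP, against 5.95%. The count of lower genes turned on the test, however. Limma-voom put 2 of the 33 lower (Irf9 and Ifi27), against 4.77% of all tested genes, and edgeR with robust dispersions put 3 lower (Mx2, Ifi27 and Ifi203), against 5.22%. DESeq2 put 18 lower, against 6.9%. The count of higher genes was also 0 by DESeq2 and by limma-voom, and 0 at an unadjusted edgeR p under 0.05, against 13.7% of all tested genes. The median log2 fold change (AAV206-GFP over AAV2-GFP) was -1.38 over the 33 tested genes and -0.01 over all tested genes. Among the tested genes 32 of 33 had a value below 0, of which Trim25 turned above 0 with upper quartile scaling. The filter on low counts bears on these numbers, because 6 of the 33 (Usp18, Mx2, Bst2, Trim30a, Ifi203 and Sp100) passed it with more AAV206-GFP than AAV2-GFP libraries under its level. Without the filter, 25 of the 41 genes were lower at adjusted p under 0.05 by the same test, against 3.42% of the 28442 genes with any count.

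**Figure D2:**
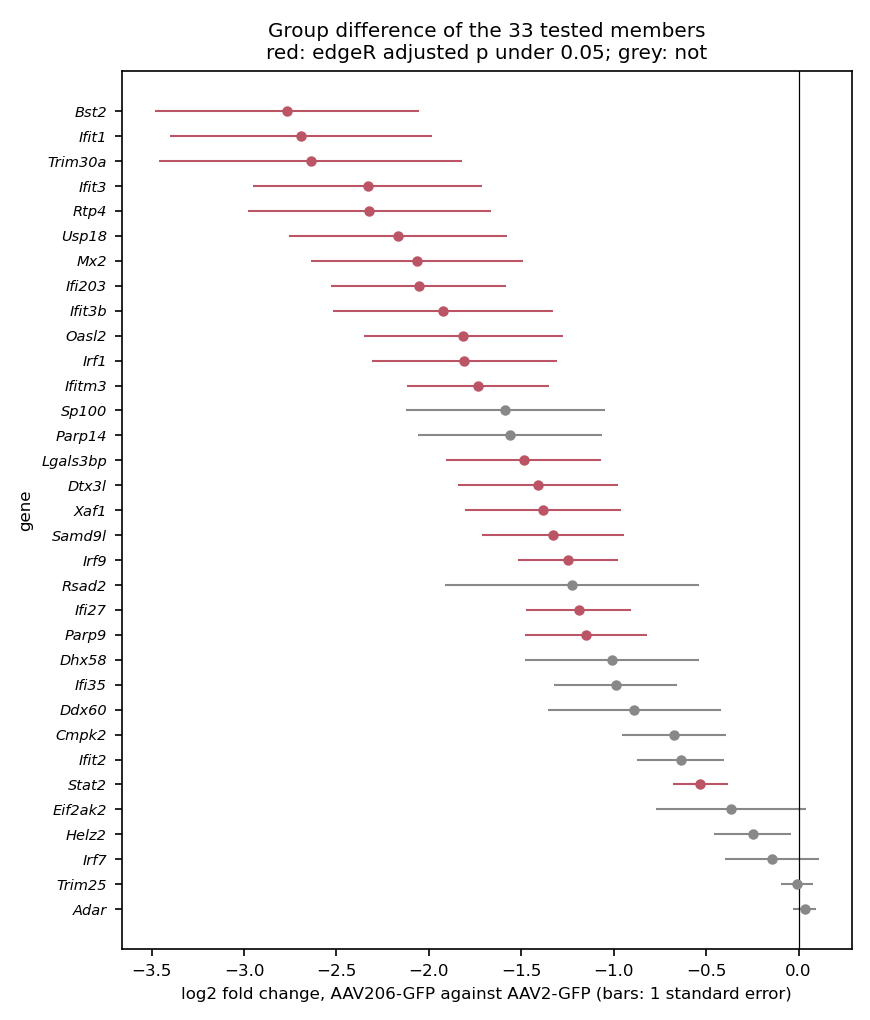
Log2 fold change of AAV206-GFP against AAV2-GFP (horizontal) for each of the 33 tested interferon-stimulated genes (vertical), with bars of 1 standard error. Red points are the 20 genes with an edgeR adjusted p under 0.05, all on the left of 0, and grey points the other 13.

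The count of 20 moved when single mice of either group were left out. The fits without AAV2-GFP mouse 2, 3 or 5 are not listed one by one here. The range over all 10 fits, which reaches above 20, is given with the processing. It fell to 10 of 33 without AAV2-GFP mouse 1 and to 4 without AAV2-GFP mouse 4. Leaving out an AAV206-GFP mouse gave 6 without mouse 1, 5 of 34 tested without mouse 2, 11 without mouse 3, 4 of 34 without mouse 4 and 6 without mouse 5. Shares of all tested genes in these fits are not given here, so the falls are not read as particular to these genes. Without AAV2-GFP mice 1 and 4 together, which were the mice with the highest levels, 1 gene was lower (Irf9), 1 was higher (Eif2ak2) and the median log2 fold change was -0.31. The mice left out of that fit were chosen by these same levels, so its counts are a description and no test. Irf9, Ifitm3, Ifi27 and Ifi203 passed the threshold in each of the 10 fits that left out 1 mouse, and the other 16 genes passed in 2 to 7 of those fits. With limma-voom, Ifitm3 and Ifi203 did not pass (adjusted p = 0.0541 for each), and with robust dispersions Irf9 (0.0635) and Ifitm3 (0.0540) did not. Without AAV2-GFP mice 1 and 4 together, the edgeR adjusted p was 0.0707 for Ifitm3, 0.0853 for Ifi27 and 0.124 for Ifi203.

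Counted without any model of the spread, the groups did not overlap for 5 of the 41 genes, each of them lower with AAV206-GFP: Irf9, Mx2, Ifitm3, Ifi27 and Ifi203. All 5 were tested genes (5 of 33), and 4.36% of all tested genes showed no overlap in this direction and 5.41% in the other. Mx2 passed the low-count filter, at 0.857 CPM, with every AAV2-GFP mouse above that level (lowest 0.898) and every AAV206-GFP mouse under it (highest 0.841). Passing the filter thus fixed its lack of overlap. Ifi203, and Usp18 named below, also passed with more AAV206-GFP than AAV2-GFP libraries under the level. The exact two-sided permutation test of log2(CPM + 1), whose smallest p with 5 against 5 mice is 0.00794, gave an unadjusted p of 0.05 or less and a lower AAV206-GFP mean for 9 of 33. The background for that count was 12.2% of all tested genes (12.7% in the other direction). With the permutation test, Stat2, Irf1, Usp18 and Parp9 joined the 5 genes without overlap.

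Promoter sequence was examined to describe the listed genes. They were listed as interferon-stimulated, so the share with an ISRE describes the list and not the order of the mice. RefSeq windows on GRCm38.p6, from 250 bases before to 50 bases after each start, were found for 31 of the 41 genes. The ISRE core was searched as GAAA, any 2 bases and GAAA (on the other strand TTTC, any 2 bases and TTTC), overlapping matches counted. It was present for 14 of the 31 genes (45.2%), where 3.99% of 27025 genes with a window held it. The genes highest in mouse 1 and those highest in mouse 4 held it in like shares, 5 of 11 (45.5%) and 9 of 20 (45.0%). The gamma-activated site (GAS), an element of genes that respond to interferon gamma, was searched as TTCNNNGAA, a pattern that reads the same on both strands, and was present for 8 of 31 genes (25.8%) against 9.55%. A match describes letters in the window and is neither a binding site nor a cause, and no match says only that the letters are not there. The following stretches are shown for 7 genes whose levels in each mouse are given, 5' to 3' on the gene's own strand, with motif letters in capitals. ISRE letters are marked in all but Irf1, where the GAS is marked.
Ifit1: gTTTCACTTTCcagtctcagTTTCAGTTTC
Ifit3: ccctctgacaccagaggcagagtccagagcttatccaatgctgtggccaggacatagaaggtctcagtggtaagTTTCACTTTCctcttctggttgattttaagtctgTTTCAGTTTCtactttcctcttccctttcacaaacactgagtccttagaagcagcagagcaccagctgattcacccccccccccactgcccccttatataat
Ifit3b: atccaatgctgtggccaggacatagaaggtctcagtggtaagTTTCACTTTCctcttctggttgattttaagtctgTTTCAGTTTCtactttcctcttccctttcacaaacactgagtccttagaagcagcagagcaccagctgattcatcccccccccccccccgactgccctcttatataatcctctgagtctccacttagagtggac
Stat2: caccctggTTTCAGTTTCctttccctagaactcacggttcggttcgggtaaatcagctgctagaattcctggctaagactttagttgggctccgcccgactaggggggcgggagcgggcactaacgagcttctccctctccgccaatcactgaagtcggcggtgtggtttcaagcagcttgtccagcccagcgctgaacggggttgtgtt
Bst2: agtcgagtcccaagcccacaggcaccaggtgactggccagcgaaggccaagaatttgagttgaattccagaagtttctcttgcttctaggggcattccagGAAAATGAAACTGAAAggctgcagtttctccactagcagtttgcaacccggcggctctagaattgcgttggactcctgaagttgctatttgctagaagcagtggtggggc
Isg15: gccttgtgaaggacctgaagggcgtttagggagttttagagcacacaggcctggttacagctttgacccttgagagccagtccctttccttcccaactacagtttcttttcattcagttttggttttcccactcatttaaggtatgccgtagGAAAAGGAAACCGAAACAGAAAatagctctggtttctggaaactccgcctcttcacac
Irf1: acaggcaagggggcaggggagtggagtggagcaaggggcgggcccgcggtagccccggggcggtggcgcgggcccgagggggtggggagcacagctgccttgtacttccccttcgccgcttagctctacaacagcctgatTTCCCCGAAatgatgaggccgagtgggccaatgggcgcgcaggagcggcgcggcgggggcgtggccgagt

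These stretches lie on GRCm38.p6 at chr19:34640784-34640813 (plus strand, Ifit1, the matches only), chr19:34583299-34583508 (plus, Ifit3), chr19:34607727-34607936 (plus, Ifit3b) and chr10:128270268-128270477 (plus, Stat2). The others are chr8:71537493-71537702 (minus, Bst2), chr4:156200839-156201048 (minus, Isg15) and chr11:53769784-53769993 (plus, Irf1). No M21 exon overlaps them. Ifit1, Ifit3 and Ifit3b carried the same pair of ISRE letters, TTTCACTTTC followed by TTTCAGTTTC, which begin at -104 and -85 from the start in Ifit1, -156 and -122 in Ifit3 and -188 and -154 in Ifit3b. Bst2 held 2 overlapping ISRE matches and a GAS match that overlaps the first of them, and Isg15 held 3 overlapping ISRE matches. Of the 24 ISRE matches in all, 16 lay within 150 bases before the start.

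Among the transcription factors, which carry the interferon signal to DNA, Irf9, Irf1 and Stat2 were lower with AAV206-GFP and Irf7 did not pass the test. Irf9 (ENSMUSG00000002325, mm10 chr14:55603571-55610030), the DNA-binding subunit of ISGF3, stood at 57.2, 24.4, 24.5, 61.8 and 20.4 CPM in AAV2-GFP mice 1 to 5. The AAV206-GFP mice had 17.2, 13.96, 14.7, 14.2 and 19.2 CPM. The groups did not overlap, and all 5 AAV2-GFP mice were higher, mice 1 and 4 most. The means were 37.7 ± 20.1 and 15.8 ± 2.25 CPM (SD, n = 5 mice each), and on the log2 scale Irf9 differed by -1.25 ± 0.27 (standard error, SE), with an edgeR adjusted p of 0.00821. It was the tested interferon-stimulated gene with the smallest adjusted p, and the difference without AAV2-GFP mice 1 and 4 was -0.55 (edgeR adjusted p = 0.0170, with 0.000377 to 0.0635 over all alternatives).

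Stat2 (ENSMUSG00000040033, chr10:128270559-128292849), the ISGF3 subunit that brings the activating domain, stood at 77.6, 49.5, 44.6, 87.2 and 54.3 CPM with AAV2-GFP. The AAV206-GFP values were 47.3, 45.1, 39.2, 43.8 and 41.3 CPM. Only mouse 3 of the AAV2-GFP group lay within the AAV206-GFP range. The log2 fold change of -0.53 ± 0.15 (edgeR adjusted p = 0.0337) was the smallest among the 20 genes past the threshold, and Stat2 did not pass without AAV2-GFP mouse 1 (0.0584) or mouse 4 (0.0912). Irf1 (ENSMUSG00000018899, chr11:53770014-53778374), a factor that interferons induce, stood at 32.0, 4.13, 4.72, 20.3 and 4.36 CPM with AAV2-GFP. In the AAV206-GFP mice it stood at 3.62, 3.37, 4.40, 3.59 and 3.65 CPM. Levels in mice 1 and 4 were 8.59 and 5.46 times the AAV206-GFP mean, and the other 3 were within or just above the AAV206-GFP range. Irf1 fell by 1.81 on the log2 scale (SE 0.50, edgeR adjusted p = 0.0303), and its adjusted p was 0.0620 without AAV2-GFP mouse 1 and 0.0798 without mouse 4.

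Irf7, the factor that amplifies interferon production, is given although it did not pass the test, a choice made after its values were seen. It stood at 34.2, 15.1, 23.0, 43.4 and 13.8 CPM with AAV2-GFP and at 30.8, 24.4, 21.3, 17.9 and 22.7 CPM with AAV206-GFP. Mice 1 and 4 were above all 5 AAV206-GFP mice and mice 2 and 5 were below all 5. The group means of 25.9 ± 12.7 and 23.4 ± 4.75 CPM differed by -0.14 ± 0.25 on the log2 scale (edgeR adjusted p = 0.748). The same arrangement of the 4 mice around the AAV206-GFP group was seen for Oasl2, Eif2ak2, Ddx60 and Rsad2, so for 5 of the 33 tested genes against 0.154% (24) of all tested genes. The arrangement was itself chosen after values were seen, and Irf7 is counted in it, so this count is a description and no test.

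The IFIT genes, whose products bind viral RNA, had the largest median excess in AAV2-GFP mouse 4 of all role groups. The median excess over the 4 genes was 1.45 in AAV2-GFP mouse 1, 0.01 in mouse 2, 1.10 in mouse 3, 3.66 in mouse 4 and 0.03 in mouse 5, on the log2(CPM + 1) scale. Ifit2, Ifit3, Ifit3b and Ifit1 lie in that order on mm10 chromosome 19, from 34550694 to 34650009. Ifit1 (ENSMUSG00000034459), which binds capped RNA lacking a methyl mark of the host, stood at 10.9, 1.71, 7.42, 46.2 and 1.97 CPM with AAV2-GFP. The AAV206-GFP mice had 1.43, 2.74, 2.85, 1.88 and 1.70 CPM. Mouse 4 was 21.8 times the AAV206-GFP mean, mouse 1 was 5.16 times and mouse 3 was 3.50 times, while mice 2 and 5 lay within the AAV206-GFP range. The means of Ifit1 were 13.7 ± 18.6 and 2.12 ± 0.636 CPM, and its log2 difference was -2.69 ± 0.71 (edgeR adjusted p = 0.0246). Its adjusted p was 0.0892 without AAV2-GFP mouse 4.

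Ifit3 (ENSMUSG00000074896), a partner of the other IFIT proteins, stood at 32.8, 8.98, 21.2, 128.3 and 6.75 CPM with AAV2-GFP and at 6.39, 8.48, 10.5, 5.02 and 8.99 CPM with AAV206-GFP. Its copy Ifit3b (ENSMUSG00000062488) stood at 7.50, 4.58, 6.96, 46.2 and 3.76 CPM and at 3.11, 4.47, 5.95, 1.97 and 2.71 CPM. In both genes mouse 4 was far above the rest, mice 1 and 3 were above all AAV206-GFP mice, and mouse 5 lay among them. On the log2 scale Ifit3 differed by -2.33 ± 0.62 (edgeR adjusted p = 0.0257) and Ifit3b by -1.92 ± 0.60 (edgeR adjusted p = 0.0483). Without mouse 4 the adjusted p was 0.0740 for Ifit3 and 0.213 for Ifit3b. Both genes had decimal counts in all 10 libraries, which shows reads shared with other features without naming them. Of the 150-base windows of their M21 transcripts, 18.5% of those of Ifit3 and 16.0% of those of Ifit3b occur in the other gene, so their split is uncertain. Ifit2 ran from 9.07 to 28.5 CPM with AAV2-GFP and from 9.51 to 13.7 CPM with AAV206-GFP, and its difference of -0.64 ± 0.24 did not pass (edgeR adjusted p = 0.0901).

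**Figure D3:**
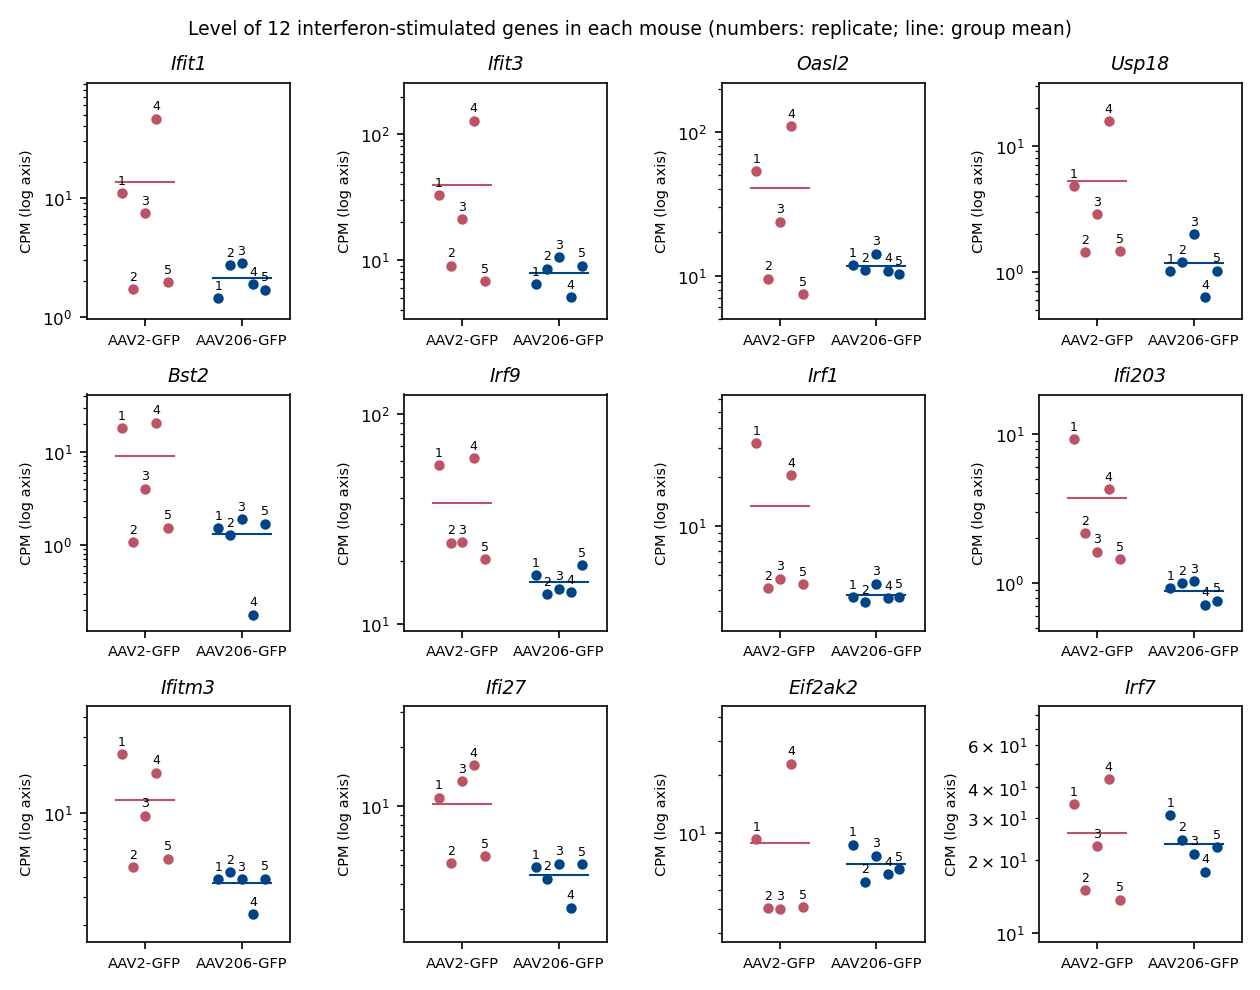
Level in CPM (vertical, log axis, scaled separately for each gene) of 12 interferon-stimulated genes in the 5 AAV2-GFP and 5 AAV206-GFP mice, with points numbered by replicate and lines at the group means. Mice 1 and 4 are the upper points of the AAV2-GFP group in all but Ifi27, where mice 4 and 3 are, and for Eif2ak2 and Irf7 the AAV2-GFP mice lie on both sides of the AAV206-GFP mice.

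In the ISG15 system, which tags proteins with a ubiquitin-like peptide, Usp18 was lower with AAV206-GFP, Trim25 did not pass the test and Isg15 had too few counts to be tested. Usp18 (ENSMUSG00000030107, chr6:121245906-121270917), the protease that removes ISG15 and restrains the receptor, stood at 4.79, 1.44, 2.86, 15.7 and 1.45 CPM with AAV2-GFP. Its AAV206-GFP levels were 1.01, 1.19, 1.98, 0.628 and 1.02 CPM. Mice 4, 1 and 3 were above every AAV206-GFP mouse, and mice 2 and 5 were within the range. Usp18 fell by 2.17 on the log2 scale (SE 0.59, edgeR adjusted p = 0.0285), with an adjusted p of 0.104 without mouse 4. Isg15, the peptide itself, is given although untested, a choice made after its values were seen. It stood at 3.89, 0.359, 2.63, 9.03 and 0.684 CPM with AAV2-GFP and between 0.254 and 0.862 CPM with AAV206-GFP. Without the filter its difference was -2.75 ± 0.58 (edgeR adjusted p = 0.00372). Trim25, a ubiquitin ligase of RNA sensing, stood between 38.7 and 50.1 CPM with AAV2-GFP and between 39.6 and 48.8 CPM with AAV206-GFP.

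Of the 9 genes that sense or act on double-stranded RNA, 5 were tested and 1, Oasl2, was lower with AAV206-GFP. Oasl2 (ENSMUSG00000029561, chr5:114896936-114912234), a member of the oligoadenylate synthetase family, stood at 53.7, 9.52, 23.7, 110.0 and 7.43 CPM with AAV2-GFP. AAV206-GFP mice 1 to 5 had 11.9, 10.9, 14.2, 10.9 and 10.3 CPM. Mice 4, 1 and 3 were above the AAV206-GFP group and mice 2 and 5 were below it. The difference was -1.81 ± 0.54 on the log2 scale (edgeR adjusted p = 0.0414), with an adjusted p of 0.0540 without mouse 1 and 0.151 without mouse 4. Eif2ak2, the kinase PKR that halts translation, is given as a gene chosen after its values were seen. It stood at 9.22, 4.04, 4.02, 22.8 and 4.10 CPM with AAV2-GFP and at 8.67, 5.56, 7.59, 6.10 and 6.44 CPM with AAV206-GFP. Mice 2, 3 and 5 were below every AAV206-GFP mouse, mouse 4 was well above and mouse 1 just above. The difference over all mice was -0.37 ± 0.41 (edgeR adjusted p = 0.594, with 0.0389 to 0.996 over all alternatives). Without mice 1 and 4 it was 0.75 (edgeR adjusted p = 0.0389). Those mice were left out for their high levels, which fixed the sign of that value in advance, so its p is no test.

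The helicases Ddx60 and Dhx58 (LGP2, a regulator of RNA sensing) had differences of -0.89 ± 0.47 and -1.01 ± 0.47 that did not pass (edgeR adjusted p = 0.227 and 0.172). Adar, which edits double-stranded RNA, differed by 0.03 ± 0.06 (edgeR adjusted p = 0.755). It stood between 129 and 154 CPM with AAV2-GFP and between 139 and 153 CPM with AAV206-GFP. In M21, 16.8% of its exon bases overlap Chrnb2 on the opposite strand, and the counting's use of strand is not given in the sources used here. The synthetases Oas1a, Oas2, Oas3 and Oasl1 were not tested, having means of 0.498 to 1.35 CPM with AAV2-GFP and 0.0505 to 0.329 CPM with AAV206-GFP. Mouse 1 was the highest for Oas1a, Oas2 and Oas3 and mouse 4 for Oasl1.

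Among the 8 antiviral effectors 7 were tested, and Mx2, Bst2, Ifitm3, Samd9l and Trim30a were lower with AAV206-GFP. Bst2 (tetherin, ENSMUSG00000046718, chr8:71534255-71537456), which holds budding virions at the cell surface, stood at 17.9, 1.08, 4.02, 20.7 and 1.54 CPM with AAV2-GFP. Among AAV206-GFP mice the levels were 1.51, 1.28, 1.90, 0.179 and 1.70 CPM. Mice 4, 1 and 3 were above all AAV206-GFP mice and mice 2 and 5 among them. Its log2 fold change of -2.77 ± 0.71 (edgeR adjusted p = 0.0218) was the largest of the 33 tested genes, and its adjusted p was 0.0710 without mouse 4. Ifitm3 (ENSMUSG00000025492, chr7:141009586-141010770), which blocks entry of enveloped viruses, stood at 23.5, 4.58, 9.67, 18.0 and 5.21 CPM with AAV2-GFP. With AAV206-GFP it stood at 3.87, 4.29, 3.88, 2.33 and 3.90 CPM. The groups did not overlap. With means of 12.2 ± 8.29 and 3.65 ± 0.759 CPM, Ifitm3 fell by 1.73 on the log2 scale (SE 0.38, edgeR adjusted p = 0.00908, limma-voom 0.0541).

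Mx2 (ENSMUSG00000023341, chr16:97535308-97560900), a dynamin-like GTPase that M21 annotates as a polymorphic pseudogene, stood at 1.08, 0.898, 1.62, 5.65 and 1.03 CPM with AAV2-GFP. With AAV206-GFP it stood at 0.841, 0.456, 0.690, 0.179 and 0.254 CPM. The groups did not overlap, though the lowest AAV2-GFP mouse and the highest AAV206-GFP mouse were close. Mx2 fell by 2.07 on the log2 scale (SE 0.57, edgeR adjusted p = 0.0307), with an adjusted p of 0.115 without mouse 4. Samd9l, a restriction factor, stood at 9.58, 2.78, 4.95, 11.9 and 2.22 CPM with AAV2-GFP and at 2.78, 2.10, 2.50, 2.15 and 2.97 CPM with AAV206-GFP. Trim30a, of the TRIM family of ubiquitin ligases, stood at 10.5, 0.988, 1.24, 8.95 and 0.342 CPM and at 0.505, 0.821, 1.64, 0, and 0.509 CPM. In both genes mice 1 and 4 were high and mice 2 and 5 overlapped the AAV206-GFP mice. Samd9l differed by -1.33 ± 0.38 (edgeR adjusted p = 0.0369) and Trim30a by -2.64 ± 0.82 (edgeR adjusted p = 0.0483), and neither passed without AAV2-GFP mouse 1 (0.0637 and 0.0956) or mouse 4 (0.121 and 0.131).

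Rsad2 (viperin), which makes a chain-terminating nucleotide, had the widest contrast of spreads and is given as a gene chosen after its values were seen. It stood at 2.98, 0.719, 2.24, 14.04 and 0.171 CPM with AAV2-GFP and at 1.60, 1.82, 1.90, 1.70 and 1.61 CPM with AAV206-GFP. Mouse 4 was 8.13 times the AAV206-GFP mean while mouse 5 was under the floor of 3 counts, and the AAV206-GFP mice were nearly equal. The group difference of -1.23 ± 0.69 did not pass (edgeR adjusted p = 0.258). Its neighbour on chromosome 12, the nucleotide kinase gene Cmpk2, had 53.3 CPM in mouse 4 and 15.6 to 22.8 CPM in the other AAV2-GFP mice, against 13.4 to 19.8 CPM (-0.67 ± 0.28, edgeR adjusted p = 0.130). Mx1 was at 1.27 and 1.13 CPM in AAV2-GFP mice 1 and 4, at 0 in the other 3, and at most at 0.170 CPM with AAV206-GFP.

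The PARP9 and DTX3L complex, an ADP-ribosyltransferase and a ubiquitin ligase that amplify interferon signalling, was lower with AAV206-GFP for both subunits. Parp9 (ENSMUSG00000022906) stood at 13.7, 5.12, 6.03, 17.7 and 5.47 CPM with AAV2-GFP and at 4.96, 4.47, 5.69, 2.87 and 3.56 CPM with AAV206-GFP. Dtx3l (ENSMUSG00000049502) stood at 18.9, 3.32, 6.73, 21.5 and 3.76 CPM and at 3.62, 5.02, 4.40, 3.77 and 3.56 CPM. Mice 1 and 4 were high in both, and mouse 3 was just above the AAV206-GFP mice. Parp9 differed by -1.15 ± 0.33 (edgeR adjusted p = 0.0354) and Dtx3l by -1.41 ± 0.43 (edgeR adjusted p = 0.0469), with 0.0594 and 0.0869 without mouse 1 and 0.112 and 0.149 without mouse 4. The genes lie head to head on chromosome 16 and share 458 exon bases on opposite strands, 9.40% of Parp9 and 8.00% of Dtx3l. Parp14, a related transferase, stood at 36.5, 5.21, 10.7, 41.4 and 5.38 CPM with AAV2-GFP and at 4.96, 8.39, 9.57, 4.49 and 6.19 CPM with AAV206-GFP. Its difference of -1.56 ± 0.50 missed the threshold (edgeR adjusted p = 0.0541).

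Of the 10 other interferon-induced genes 8 were tested, and Ifi27, Ifi203, Xaf1, Rtp4 and Lgals3bp were lower with AAV206-GFP. Ifi203 (ENSMUSG00000039997, chr1:173920407-173942672), of the PYHIN family to which DNA sensors belong, stood at 9.22, 2.16, 1.62, 4.28 and 1.45 CPM with AAV2-GFP. With AAV206-GFP it stood at 0.925, 1.00, 1.03, 0.718 and 0.763 CPM. The groups did not overlap and mouse 1 was highest, at 10.4 times the AAV206-GFP mean. Ifi203 fell by 2.06 on the log2 scale (SE 0.48, edgeR adjusted p = 0.0124, limma-voom 0.0541). Ifi27 (ENSMUSG00000064215, chr12:103434211-103440239), which encodes a mitochondrial membrane protein, stood at 11.03, 5.12, 13.3, 16.1 and 5.55 CPM with AAV2-GFP. With AAV206-GFP it stood at 4.88, 4.29, 5.09, 3.05 and 5.09 CPM. The groups did not overlap, but mice 2 and 5 were only just above the AAV206-GFP mice, and mouse 3 was above mouse 1. Ifi27 fell by 1.19 (SE 0.28, edgeR adjusted p = 0.0149, limma-voom 0.0459).

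Rtp4, a Golgi chaperone of membrane receptors, stood at 8.32, 0.719, 3.63, 9.92 and 0.684 CPM with AAV2-GFP and at 0.337, 1.09, 1.64, 0.449 and 1.10 CPM with AAV206-GFP. Xaf1, which counters an inhibitor of apoptosis, stood at 7.96, 2.61, 4.25, 13.1 and 1.71 CPM and at 2.27, 2.65, 2.33, 2.06 and 2.03 CPM. Lgals3bp, a secreted galectin ligand, stood at 46.9, 8.35, 20.1, 46.5 and 8.12 CPM and at 8.92, 12.6, 10.004, 6.01 and 8.82 CPM. In all 3 genes mice 1, 4 and 3 were above every AAV206-GFP mouse, mouse 2 lay within that group, and mouse 5 lay within it or, for Xaf1, below it. Rtp4 differed by -2.32 ± 0.66 (edgeR adjusted p = 0.0329), Xaf1 by -1.38 ± 0.42 (0.0462) and Lgals3bp by -1.49 ± 0.42 (0.0334). None of the 3 passed without AAV2-GFP mouse 1 (0.0539, 0.0686 and 0.0598) or without mouse 4 (0.102, 0.163 and 0.0996). In M21, 13.9% of the exon bases of Rtp4 overlap Gm45338 on the same strand.

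The others of this group did not pass or were not tested. Sp100, a component of nuclear bodies, differed by -1.59 ± 0.54 (edgeR adjusted p = 0.0670) and Ifi35 by -0.99 ± 0.33 (edgeR adjusted p = 0.0659). Helz2, a helicase, differed by -0.25 ± 0.21 (edgeR adjusted p = 0.458). Ifi204 and Ifi44 were not tested. Ifi204, a PYHIN gene beside Ifi203, was highest in mouse 1 at 6.33 CPM against 2.18 CPM in mouse 4, and was at most 0.431 CPM with AAV206-GFP. Without the filter its difference was -3.55 ± 0.84 (edgeR adjusted p = 0.00873). Ifi44 was highest in mouse 4, at 4.84 CPM. Apart from Isg15 and Ifi204, the 6 untested genes had adjusted p-values of 0.0512 to 0.154 without the filter.

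Mice 1 and 4 differed in which genes they raised most. The ratio of mouse 4 to mouse 1 had a median of 1.19 over the 41 genes and ran from 0.223 for Oas3 to 6.16 for Ifit3b, while over all tested genes the median was 1.00. Ratios of more than 3 were found for Ifit3b (6.16), Mx2 (5.20), Rsad2 (4.70), Ifit1 (4.22), Ifit3 (3.91) and Usp18 (3.28). The low end held Ifi203 (0.464), Sp100 (0.400), Ifi204 (0.344) and Oas3 (0.223), with Irf1 at 0.635 and Ifitm3 at 0.765. Thus the IFIT genes, Usp18, Mx2 and Rsad2 were highest in mouse 4, and the PYHIN genes, 3 of the synthetases, Irf1, Ifitm3 and Sp100 were highest in mouse 1. These are ratios between single mice, with no replicate check.

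**Figure D4:**
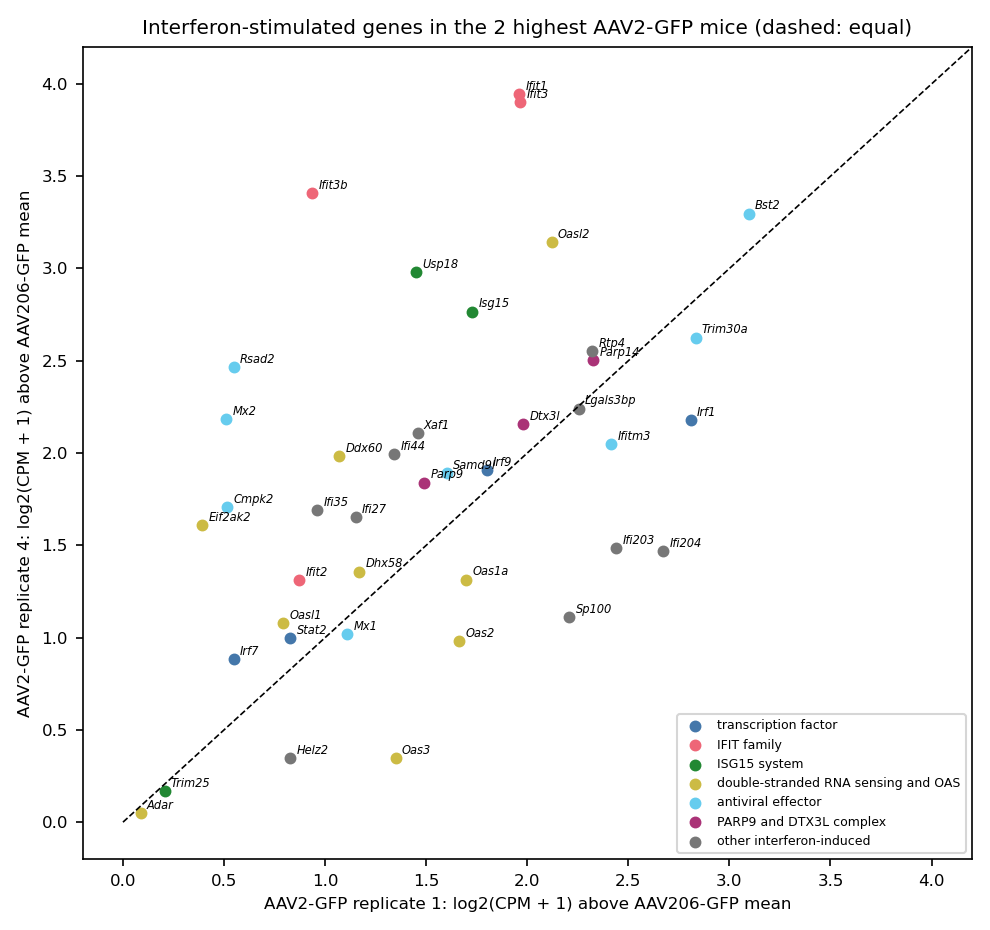
Each of the 41 interferon-stimulated genes by its excess over the AAV206-GFP mean, in log2(CPM + 1), in AAV2-GFP mouse 1 (horizontal) and mouse 4 (vertical), coloured by role, with a dashed line of equality. Ifit1, Ifit3, Ifit3b, Usp18 and Rsad2 lie well above the line and Oas3, Sp100, Ifi204 and Ifi203 below it.

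The genes upstream of these were read from a list of interferon ligands, receptors, transducers and negative regulators. Of 16 ligand genes, 14 had no count in any library and 15 had at most 3 counts in every library. Ifnb1, the interferon beta gene, was among the 14, so its level was under the floor of 3 counts in all 10 mice. Ifng, the interferon gamma gene made by T and NK lymphocytes, had 4 counts (0.362 CPM) in AAV2-GFP mouse 1 and none in the other 9. Of the receptor genes 5 were tested, and 0 passed by edgeR, DESeq2 or limma-voom, with 1 (Ifngr1) lower at an unadjusted edgeR p under 0.05. Their differences were 0.04 ± 0.07 for Ifnar1 (edgeR adjusted p = 0.751), -0.38 ± 0.19 for Ifnar2 (0.205), -0.24 ± 0.11 for Ifngr1 (0.171), -0.19 ± 0.14 for Ifngr2 (0.387) and -0.40 ± 0.26 for Il10rb (0.336). Ifnar2 stood at 11.5 CPM in mouse 1 and at 6.11 to 6.84 CPM in the other AAV2-GFP mice, against 4.56 to 6.56 CPM.

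Of 8 kinases and transducers read here, Irf8 was lower with AAV206-GFP and Jak1 was higher. Irf8, a factor of myeloid cells, stood at 35.5, 2.34, 2.09, 3.47 and 1.97 CPM with AAV2-GFP and at 0.862 to 2.55 CPM with AAV206-GFP. Irf8 was thus high in mouse 1 alone, and its difference of -2.59 ± 0.77 (edgeR adjusted p = 0.0417) did not pass without that mouse (0.179). It did not pass either without any one of the AAV206-GFP mice (0.0669 to 0.0947), with limma-voom (0.211) or with robust dispersions (0.156). Jak1, the receptor's kinase, rose by 0.31 (SE 0.08, edgeR adjusted p = 0.0182), from 119 to 137 CPM with AAV2-GFP to 138 to 182 CPM with AAV206-GFP. It did not pass without AAV206-GFP mouse 3 (0.0531) or mouse 4 (0.0507). Of the 5 tested negative regulators 0 passed by edgeR and limma-voom and 1 by DESeq2, with 4 (Socs3, Ptpn2, Ptpn6 and Irf2bp1) lower at an unadjusted edgeR p under 0.05, against 14.3% of all tested genes. These 4 did not share a pattern over mice. Ptpn6 stood at 14.3 CPM in AAV2-GFP mouse 1 and at 0.539 to 1.31 CPM in the other AAV2-GFP mice. Irf2bp1 was lowest of that group in mouse 1, at 75.4 CPM against 89.3 to 100.5 CPM. Ptpn2, a phosphatase of the JAK kinases, came nearest (edgeR adjusted p = 0.0507).

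Sums of immune cell markers were highest in AAV2-GFP mouse 1. The microglia and macrophage sum was also above the AAV206-GFP range in mice 3 and 4, though far less. The 14 T and NK lymphocyte genes summed to 33.8 CPM in mouse 1, and all 14 were highest there, against 0.854 to 1.53 CPM in the other AAV2-GFP mice and 0.848 to 1.61 CPM with AAV206-GFP. The value of mouse 4, 1.53 CPM, lay within the AAV206-GFP range. The 12 microglia and macrophage genes summed to 302.0, 46.4, 70.7, 66.7 and 45.3 CPM in AAV2-GFP mice 1 to 5 and 40.7 to 48.3 CPM with AAV206-GFP. Mice 1, 3 and 4 were thus above every AAV206-GFP mouse, and mice 2 and 5 lay among them. All 12 genes were highest in mouse 1. The 8 blood monocyte and neutrophil genes, 2 of them at 0 in every library, summed to 24.1 CPM in mouse 1. They summed to 1.24 CPM in mouse 3, 0.887 CPM in mouse 4, 0 in mice 2 and 5, and 0 to 0.547 CPM with AAV206-GFP. Of these 8, 4 were highest in mouse 1 (Ccr2, Ly6c2, Plac8 and Fcgr4), while S100a8, S100a9, Ly6g and Chil3 had no count there. Ccr2, a defining gene of blood monocytes, was at 11.03 CPM in mouse 1, 0.773 CPM in mouse 3 and 0.0807 CPM in mouse 4. It had no count in AAV2-GFP mice 2 and 5 or with AAV206-GFP.

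The 5 dendritic cell genes summed to 21.9 CPM in mouse 1, 3.67 to 5.93 CPM in the other AAV2-GFP mice and 3.97 to 5.20 CPM with AAV206-GFP. The 6 B cell and plasma cell genes summed to 35.8 CPM in mouse 1, 9.74 to 12.6 CPM in the others and 14.3 to 19.6 CPM with AAV206-GFP. Most of each sum was 1 gene, Jchain, at 29.9 CPM in mouse 1, 9.12 to 11.9 CPM in the others and 14.1 to 19.1 CPM with AAV206-GFP. Without mouse 1 the median log2 fold change of the 33 tested genes was -1.16, and 10 of 33 passed by edgeR (share of all tested genes not given here). Leaving out a mouse removes all of its RNA and not that of these cells alone. The part of these cells in the interferon-stimulated gene levels of mouse 1 was not tested. Erythrocyte and lens genes also differed between the groups. The 5 erythrocyte genes summed to 67.8 to 85.8 CPM with AAV2-GFP and 101 to 319 CPM with AAV206-GFP, and the 5 lens genes to 14.6 to 33.2 CPM and 1.61 to 15.8 CPM, and their part in the result was not tested. In mouse 1 the sums were 2087 CPM for 6 Muller glia and astrocyte genes, 301 for 6 endothelial and 25.4 for 5 retinal pigment epithelium genes. The other AAV2-GFP mice had 2481 to 3002, 278 to 298 and 10.4 to 35.5 CPM, in that order. The AAV206-GFP mice had 2122 to 2550, 277 to 315 and 13.3 to 20.5 CPM.

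**Figure D5:**
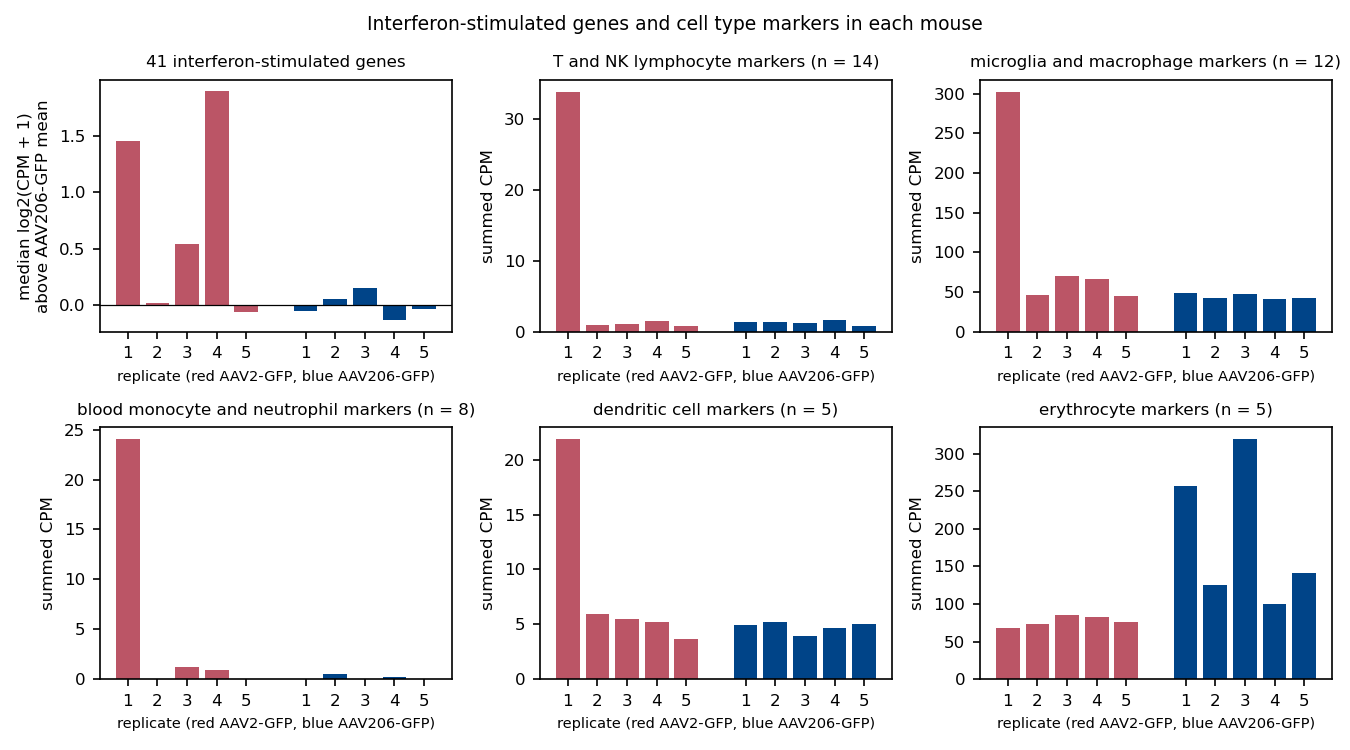
The first panel gives the median excess of the 41 interferon-stimulated genes over the AAV206-GFP mean, in log2(CPM + 1), for each mouse; the other panels give summed CPM of 5 marker lists. Lymphocyte, macrophage, monocyte and dendritic cell sums peak in AAV2-GFP mouse 1, while the interferon-stimulated genes peak in mouse 4.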

How the data were processed

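The authors deposited estimated counts per gene, unscaled; 5.95% of values carry decimals. STAR 2.7.10b, RSEM 1.3.1 and mm10 are named in the submitters' processing notes; the annotation and the use of strand are not given in the sources used here. Per the labels' protocols, libraries came from total RNA and were read as pairs of 150 bases. Identifiers were matched to GENCODE M21, which named 52029 of 57010, and coordinates are M21's.

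Estimated counts were rounded and tested with edgeR 4.0.16 (R 4.3.3): filterByExpr with a minimum count of 10, TMM factors, quasi-likelihood test on all 10 libraries without covariates, Benjamini-Hochberg adjustment over 15539 genes, threshold 0.05. Standard errors are the absolute log2 fold change over the square root of F. The exact permutation test used all 252 relabellings and a pseudocount of 1. The script was tested on simulated data. No library repeated another of its group within sampling noise (chi-square per degree of freedom of pairs, 3.61 to 21.3). Alternatives used other scaling, filters and tests (DESeq2 1.42.0, limma 3.58.1).

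The genes, lists and tests were chosen with earlier results of these data known. Values in every mouse are printed, within each role, for genes past the threshold and for the tested gene with the widest ratio of highest to lowest AAV2-GFP mouse; upstream genes are named if past the threshold or if Ifnar1, Ifnar2, Ifngr1, Ifngr2, Ifnb1 or Ifng. Promoters were to be shown for up to 5 genes with an ISRE match. Irf7, Eif2ak2, Isg15, Rsad2, Ptpn2, Il10rb and Ccr2, and the promoters of Isg15 and Irf1, fall outside this rule and were chosen after values were seen. The same holds for Socs3, Ptpn6, Irf2bp1, Jchain and the other blood monocyte and neutrophil genes named. Tests that needed protein sequences were not run. One gene of the upstream list is not reported here.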

Additional observations from a re-analysis of the deposited data

Results flagged for a closer look

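Among 91 groups of 5 mice examined gene by gene, 8 held a mouse far from the other 4 by the ratio of gap to range on log2(CPM + 1). Chance would give about 4.55 if the groups were independent. They are related genes in the same mice, so the 8 cannot be judged against that number. In AAV2-GFP, Ifit3b (ratio 0.747) had mouse 4 at 46.2 CPM against 3.76 to 7.50 CPM, and Mx2 (0.742) had mouse 4 at 5.65 CPM against 0.898 to 1.62 CPM. Irf8 (0.837) had mouse 1 at 35.5 CPM against 1.97 to 3.47 CPM, and Ifnar2 (0.827) had mouse 1 at 11.5 CPM against 6.11 to 6.84 CPM. Jak1 (0.712) had mouse 3 low, at 119 CPM against 132 to 137 CPM. In AAV206-GFP, mouse 4 was low for Bst2 (0.732), at 0.179 CPM against 1.28 to 1.90 CPM, and for Ifitm3 (0.822), at 2.33 CPM against 3.87 to 4.29 CPM. Irf1 (0.714) had AAV206-GFP mouse 3 high, at 4.40 CPM against 3.37 to 3.65 CPM.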

How the results depend on the processing

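The 20 lower genes were 20 with DESeq2's or upper quartile size factors, library size alone or unrounded counts, 25 without a filter, 18 with a mean of at least 1 CPM and 18 with DESeq2 (15 of the 20; Ifit3b had no adjusted p). They were 2 with limma-voom, 3 with its sample weights and 3 with robust dispersions. With the replicate block they were 5; same-numbered libraries had correlations of deviations of -0.052 to 0.040 and 0 of 5 numbers matched best with their own, so the numbers do not pair the mice. Without AAV2-GFP mice 1 and 4, the highest ones by choice, 1 was lower, 1 was higher and the median was -0.31. Leaving out 1 mouse gave 4 to 25 lower genes, medians of -1.62 to -0.97, and 3 to 21 genes by the exact permutation test. Shares of all tested genes in the fits without 1 mouse are not given here. The cause was not tested.

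Signs turned above 0 for Trim25 (0.000346 with upper quartile factors, 0.0108 with voom sample weights, 0.116 without mice 1 and 4, -0.0538 to 0.0444 without 1 mouse), Eif2ak2 (0.00426 with limma-voom, 0.754 without both, -0.554 to 0.367 without 1), Irf7 (0.0457 with sample weights, 0.428 without both, -0.30 to 0.125 without 1), Rsad2 (0.306, 0.687 and -1.54 to 0.171 likewise), Ddx60 (0.329 without both) and Helz2 (0.117 without both). Genes near the floor, such as Oas3 and Mx1, are limited by depth.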
